A study of Mus musculus with 4 samples.

Results

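The oral and first-arch identity factors described here are 9 homeobox genes, namely Pitx1, Pitx3, Barx1, Barx2, Lhx6, Lhx8, Gsc, Alx1 and Alx4. They were taken by their symbols from the deposited expression table, and all 9 were found among its 24771 features. Expression was measured by RNA-seq in 2 samples of PSC-derived SG placodes and 2 samples of E12.5 SMGs. The placodes, labelled as induced embryonic salivary glands from mouse ES cells, were collected on day 10. They grew from aggregates of the mouse ES cell line 129w2, with 3000 cells put in each well and Matrigel added at 2%. They had received 2 ng/ml BMP4 on day 3, 25 ng/ml bFGF with 1 μM RA on day 4, and 200 ng/ml FGF10 from day 6. The SMGs were submandibular glands of mouse embryos at E12.5, whose strain, dissection and pooling are not given in the sources used here. All placode samples came from 1 cell line, and nothing states that the samples of a group came from separate cultures or litters, so the p-values below measure the spread between these samples only, which may be technical. The comparison addresses how far the placodes, differentiated by way of an oral ectoderm stage, share the regional identity of the embryonic gland.

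The submandibular gland buds from the oral ectoderm into mesenchyme of the first pharyngeal arch, much of which comes from the cranial neural crest. Transcription factors with a homeodomain, which bind DNA sequences built around the core TAAT, give these tissues their regional identity. The oral ectoderm is marked by Pitx factors, and FGF signals from the ectoderm turn on Barx1, Lhx6 and Lhx8 in the mesenchyme below it. Endothelin signals pattern the lower jaw through Dlx5, Dlx6 and Hand2, and Alx factors act in the mesenchyme of the face. The first arch is the pharyngeal arch without Hox gene expression.

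Of the 9 genes, 8 were lower in the placodes and 1, Alx1, was higher. On the log2(FPKM + 1) scale Pitx1, Barx1 and Barx2 fell the most, from FPKM values between 61.1 and 253 in the SMGs to values below 1 in the placodes. With 0.01 in place of 1 added, Gsc had the lowest log2 fold change, -9.49, followed by Pitx1 at -8.99. FPKM scales the fragments mapped to a gene by the length of its transcript and by the mapped fragments of the sample, so it can be compared between genes. A gene was called different at a limma adjusted p below 0.05 on log2(FPKM + 1) over 13193 features with a mean FPKM of at least 1. All 9 members were tested, and their groups did not overlap, as was true of 88.4% of all tested features. Over all tested features, 40.4% were called lower and 35.7% higher in the placodes. Every member had a mean below 1 FPKM in the group where it was lower and entered the test only through the other group, so it had to differ. Of the 895 tested features with a placode mean below 1, 94.1% were called lower. Of the 823 with an SMG mean below 1, 96.5% were called higher. The direction of the members is therefore near that background, and the sizes of the differences are given instead. The median log2 fold change of the 9 members was -4.17, against -0.05 over all tested features and -1.69 over the 895 features low in the placodes.

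**Figure D1:**
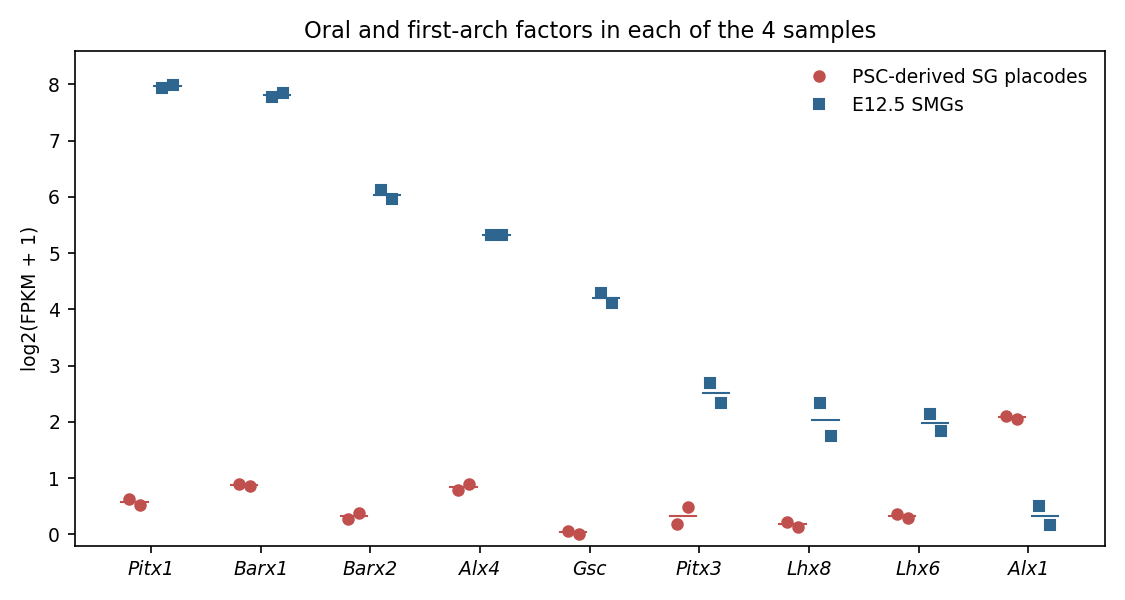
The plot of the 9 genes by sample shows log2(FPKM + 1) on the vertical axis for the 2 placode samples (circles) and the 2 SMG samples (squares), with a short line at each group mean. The SMG samples lie above the placode samples for 8 genes and below them for Alx1.

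Pitx1, which marks the oral ectoderm, is described first, with Barx2 and Pitx3. Its FPKM was 0.539 and 0.429 in placode samples 1 and 2 and 245 and 253 in SMG samples 1 and 2. The SMG mean was 515 times the placode mean. On the log2 scale the difference was -7.40 ± 0.06 (fold change ± standard error, adjusted p = 4.10e-08), and 6 of all tested features had a lower value. The gene (ENSMUSG00000021506) lies on the minus strand of chromosome 13 of GRCm38 from 55825051 to 55836192, and some of its exon bases are shared with 2 other annotated genes, 1 of them antisense. Barx2, a factor of epithelia and of muscle, was at 0.212 and 0.301 FPKM in the placodes and at 69.1 and 61.1 FPKM in the SMGs. The gene (ENSMUSG00000032033) lies on the minus strand of chromosome 9 from 31846044 to 31913462. Its log2 fold change was -5.72 ± 0.09 (adjusted p = 1.94e-07). Pitx3, known from the lens, midbrain dopaminergic neurons and skeletal muscle, had 0.131 and 0.394 FPKM in the placodes and 5.46 and 4.03 FPKM in the SMGs. The difference was smaller, with a log2 fold change of -2.18 ± 0.17 (adjusted p = 5.48e-05). Pitx3 lies on chromosome 19 from 46135685 to 46148326 and shares exon bases with Elovl3 on the opposite strand, which was listed at 0 in all 4 samples. In these bulk samples, fewer cells expressing a gene and less of its RNA per cell cannot be told apart.

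Of the factors of the arch mesenchyme, Barx1, which marks the proximal first arch around the future molars, was nearly as high as Pitx1 in the SMGs. Its FPKM was 0.862 and 0.807 in the placodes and 219 and 229 in the SMGs, a ratio of the means of 268 and a log2 fold change of -6.94 ± 0.06 (adjusted p = 4.10e-08). Gsc, first known from the organizer of the gastrula and later active in arch mesenchyme, was at 0.0486 FPKM in placode sample 1, listed at 0 in placode sample 2, and at 18.6 and 16.4 FPKM in the SMGs. Its log2 fold change was -4.17 ± 0.11 (adjusted p = 6.31e-07). No ratio is given for Gsc because of the value listed at 0. Barx1 (ENSMUSG00000021381) lies on the plus strand of chromosome 13 from 48662998 to 48666507, and Gsc (ENSMUSG00000021095) on the minus strand of chromosome 12 from 104471209 to 104473330. Lhx6 and Lhx8, LIM-homeobox genes of the oral side of the arch and of ventral forebrain neurons, were low in both groups. They lie on the minus strands of chromosome 2 from 36081953 to 36105408 and of chromosome 3 from 154306294 to 154330659. Some exon bases of Lhx6 are shared with Gm27953, a noncoding gene on the same strand. Lhx6 had 0.283 and 0.222 FPKM in the placodes and 3.42 and 2.56 FPKM in the SMGs, with a log2 fold change of -1.66 ± 0.14 (adjusted p = 8.02e-05). Lhx8 had 0.160 and 0.102 FPKM in the placodes and 4.06 and 2.36 FPKM in the SMGs, with a log2 fold change of -1.87 ± 0.20 (adjusted p = 2.50e-04). On the log2(FPKM + 1) scale such low genes show smaller changes than their ratios of FPKM, which were 11.8 for Lhx6 and 24.4 for Lhx8. Among the 895 tested features low in the placodes, 460 had a lower log2 fold change than Lhx6 and 373 than Lhx8, against 8 for Barx1 and 30 for Gsc.

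RefSeq promoters of GRCm38.p6 were held for 5 members, Pitx3, Barx1, Lhx6, Lhx8 and Gsc, all lower in the placodes. The 250 bases before the start are shown for 3 of them, Barx1 as the most CpG-rich, and Gsc and Lhx6 as the members with a TAAT core there. They are written 5′ to 3′ on the strand of the gene, with every TAAT or its reverse complement ATTA in capitals. The Barx1 window is chr13:48662786-48663035 on the plus strand, the Gsc window chr12:104473237-104473486 on the minus strand, and the Lhx6 window, before the innermost of its 3 listed starts, chr2:36104061-36104310 on the minus strand.
Barx1: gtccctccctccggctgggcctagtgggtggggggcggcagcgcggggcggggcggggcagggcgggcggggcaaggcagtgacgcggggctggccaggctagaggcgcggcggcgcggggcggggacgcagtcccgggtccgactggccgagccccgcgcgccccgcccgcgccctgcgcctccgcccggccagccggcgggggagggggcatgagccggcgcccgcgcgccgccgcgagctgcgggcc
Gsc: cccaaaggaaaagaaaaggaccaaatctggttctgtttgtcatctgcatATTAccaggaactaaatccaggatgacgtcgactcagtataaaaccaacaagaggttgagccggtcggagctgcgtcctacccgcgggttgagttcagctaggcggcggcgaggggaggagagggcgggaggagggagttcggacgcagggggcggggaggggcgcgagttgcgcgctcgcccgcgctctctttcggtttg
Lhx6: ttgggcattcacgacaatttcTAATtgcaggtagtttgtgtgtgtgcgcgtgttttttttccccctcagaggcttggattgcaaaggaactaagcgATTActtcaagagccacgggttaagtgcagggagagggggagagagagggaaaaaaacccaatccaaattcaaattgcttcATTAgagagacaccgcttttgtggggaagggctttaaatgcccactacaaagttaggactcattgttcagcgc

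The Barx1 window had a GC content of 85.6% with 40 CpG dinucleotides and held no TAAT. The Gsc window had 22 CpG dinucleotides and 1 TAAT core, and the Lhx6 window shown had 7 and 3. The windows of Pitx3, of Lhx8 and of the other 2 starts of Lhx6 held no TAAT on either strand, and had 16, 4, 14 and 17 CpG dinucleotides. Over all 32851 listed promoters cut to the same length, the median was 6 CpG dinucleotides and 54.9% held a TAAT core. The longer TAATCC, preferred by Pitx and Gsc proteins, and TAATTA, bound by many other homeodomain proteins, were searched on both strands. They overlap the TAAT core, were found in 6.25% and 4.84% of all promoters, and were in none of the members' windows. These matches describe the letters of the windows only.

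The Alx genes, which act in the mesenchyme of the face, went in opposite directions. Alx4 had 0.734 and 0.864 FPKM in the placodes and 39.3 and 38.8 FPKM in the SMGs. Its log2 fold change was -4.48 ± 0.08 (adjusted p = 2.22e-07). Alx1 had 3.31 and 3.17 FPKM in the placodes and 0.414 and 0.126 FPKM in the SMGs. Both placode samples were above both SMG samples, and the log2 fold change was 1.75 ± 0.14 (adjusted p = 6.85e-05). Of the 823 tested features with an SMG mean below 1, 457 had a higher log2 fold change than Alx1. Alx1 (ENSMUSG00000036602) lies on the minus strand of chromosome 10 of GRCm38 from 102998707 to 103030215, and Alx4 (ENSMUSG00000040310) on the plus strand of chromosome 2 from 93642384 to 93681339. Some exon bases of Alx1 are shared with Gm17028, a noncoding gene on the same strand.

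The order of the levels differed between the groups. In the SMGs, the order from the highest mean was Pitx1, Barx1, Barx2, Alx4, Gsc, Pitx3, Lhx8, Lhx6 and Alx1. Neighbors in this order did not overlap between samples, except that Pitx3 overlapped with Lhx8 and Lhx8 with Lhx6. In the placodes Alx1 came first, followed by Barx1 and Alx4, whose samples overlapped, and then by Pitx1. Below Pitx1, the values of Pitx3, Barx2 and Lhx6 overlapped, and Lhx8 and Gsc had the lowest means. The FPKM of the 9 genes summed to 604 and 608 in the SMG samples and to 6.28 and 6.29 in the placode samples. Pitx1 and Barx1 together made up 76.8% and 79.4% of this sum in the SMGs, against 22.3% and 19.7% in the placodes. Alx1 made up 52.7% and 50.4% in the placodes and less than all other members in the SMGs.

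Of 11 relatives, 5 were tested, of which 4 were called higher in the placodes and 1, Isl2, lower, with a median log2 fold change of 2.17. Each of these 5 had a mean below 1 FPKM in the group where it was lower, so its call was nearly fixed, as for the members. The higher genes were Lhx1, Lhx5, Lmx1b and Isl1. Like Isl2, they are LIM-homeobox genes known, among other tissues, from neurons of the brain and spinal cord. The log2 fold change of Isl1 was only 0.44, where the median absolute value over all tested features was 0.55. Lhx1 was at 99.95 and 105 FPKM in the placodes and at 0.0262 and 0.0136 FPKM in the SMGs. Its log2 fold change was 6.66 ± 0.07 (adjusted p = 7.80e-08). Lhx5 was at 59.8 and 59.1 FPKM in the placodes, against 0.0168 FPKM in SMG sample 1 and a listing at 0 in SMG sample 2. Of the LIM-homeobox genes, Lhx6 and Lhx8 were thus below 0.3 FPKM in the placodes, where Lhx1 and Lhx5 exceeded 59 FPKM. The other LIM-homeobox relatives were also low there, with placode means from 0.0123 FPKM for Lhx9 to 3.82 FPKM for Lmx1b. Gsc2, the relative of Gsc, was at 0.0524 and 0.260 FPKM in the placodes, was listed at 0 in the SMGs and was not tested. Whether the fold changes of any pair of relatives differed was not tested.

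**Figure D2:**
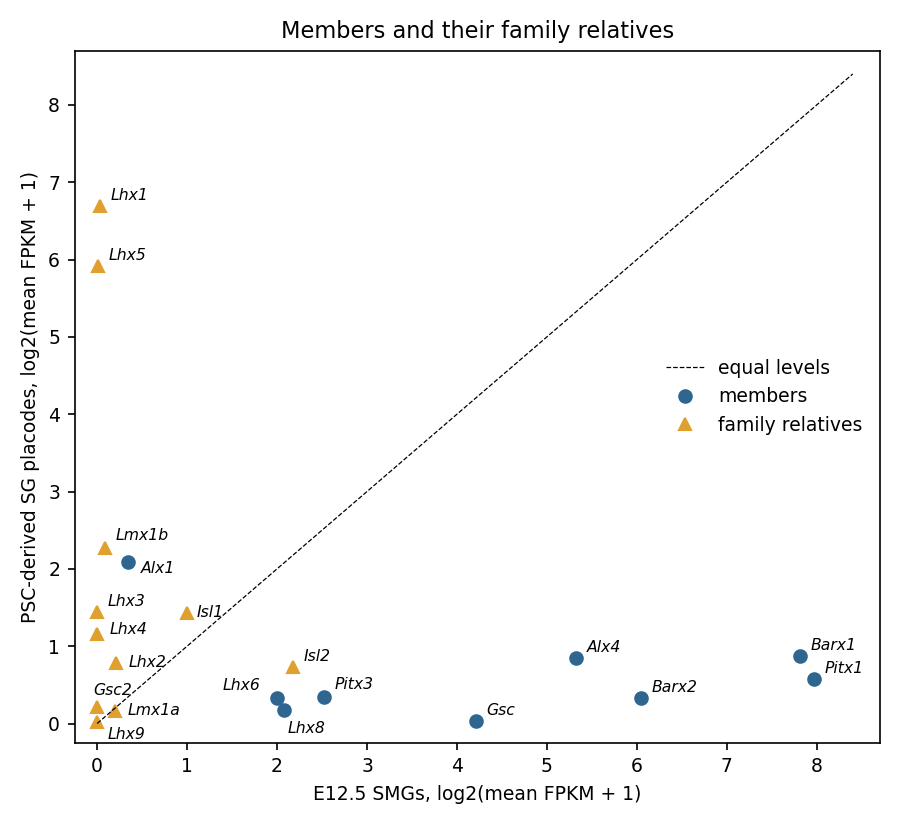
The plot of the members and their family relatives shows log2(mean FPKM + 1) in the SMGs on the horizontal axis and in the placodes on the vertical axis, with circles for members, triangles for relatives and a dashed line at equal levels. Pitx1, Barx1, Barx2, Alx4 and Gsc lie along the bottom right, and Lhx1 and Lhx5 at the top left.

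Other genes of the oral epithelium and the first arch were taken from lists by their known roles. Of 8 oral epithelium genes, 7 were tested, and 4 were called lower and 2 higher in the placodes, with a median log2 fold change of -1.52, against 40.4% lower and 35.7% higher over all tested features. Of the lower genes, 3 had a placode mean below 1, and both higher genes had an SMG mean below 1, classes in which 94.1% and 96.5% were called in that direction. The lower genes were Trp63, Foxe1, Grhl3 and Tfap2a. Trp63, the p63 factor of stratified epithelia and their basal cells, had 0.0287 and 0.0262 FPKM in the placodes and 13.6 and 13.2 FPKM in the SMGs (log2 fold change -3.81, adjusted p = 6.09e-07). The 2 higher genes, Shh and Isl1, also belong to the ventral neural tube. Shh, the hedgehog ligand, was at 2.59 and 2.92 FPKM in the placodes, and in the SMGs it was listed at 0 in sample 1 and at 0.0735 FPKM in sample 2. Dlx3 was not called, with a log2 fold change of -0.39 (adjusted p = 0.0582). With 1 sample left out at a time, its log2 fold change lay between -0.58 (without SMG sample 2) and -0.20 (without SMG sample 1).

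In the first-arch mesenchyme list, 17 of 21 genes were tested, 16 were called lower and 0 higher, with a median log2 fold change of -2.67. Of the 16, 9 had a placode mean below 1 and were tested only through the SMGs, a class in which 94.1% were called lower, and the other 7 stand beside the 40.4% of all tested features. Osr1, a zinc finger factor of embryonic mesenchyme, had the lowest log2 fold change, -4.86 ± 0.08 (adjusted p = 2.09e-07), with 3.14 and 2.64 FPKM in the placodes and 107 and 117 FPKM in the SMGs. Prrx1, a homeobox gene of limb and face mesenchyme, had the highest SMG level of the list, 115 and 122 FPKM, against 4.05 and 3.94 FPKM in the placodes. Hand2, which marks the distal lower jaw, was at 0.0631 and 0.268 FPKM in the placodes and at 19.8 and 18.5 FPKM in the SMGs. Dlx5 and Dlx6, the neighboring genes that specify the lower jaw, had log2 fold changes of -2.94 and -2.46. Twist1, a bHLH factor of mesenchyme and neural crest, had the highest placode level of the list, 21.2 and 22.8 FPKM, against 61.5 and 67.5 FPKM in the SMGs. The smallest called difference was that of Ednra, the endothelin receptor, at -0.37 (adjusted p = 4.07e-03). Foxf1 was not called (log2 fold change -0.46, adjusted p = 0.0646). With 1 sample left out at a time, its log2 fold change lay between -0.66 (without SMG sample 1) and -0.25 (without SMG sample 2). Msx1, Msx2, Foxd1 and Foxf2 were below the expression minimum and not tested. Msx1 was at 0.934 and 0.536 FPKM in the placodes and 1.09 and 1.42 FPKM in the SMGs. Msx2 lay the other way, at 1.17 and 1.34 FPKM in the placodes and 0.0660 and 0.0841 FPKM in the SMGs.

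Of the signals that act on these factors, 8 of 10 were tested, 5 were called lower and 3 higher, with a median log2 fold change of -0.74. Over all tested features, 40.4% were called lower and 35.7% higher. Of the signals, only Shh had a mean below 1 in 1 group, the SMGs, a class in which 96.5% were called higher. Fgf8, the ectodermal inducer of Barx1, Lhx6 and Lhx8, was listed at 0 in 3 samples and at 0.0539 FPKM in SMG sample 1. Bmp7 was the most abundant in the SMGs, at 45.5 and 45.6 FPKM against 18.9 and 17.9 FPKM in the placodes. Ece1, which activates endothelins, had the lowest log2 fold change, -1.70 (adjusted p = 1.27e-05). The 3 higher genes, Shh, Ptch1 and Gli1, belong to the hedgehog pathway, and Ptch1, its receptor and target gene, was at 29.0 and 32.7 FPKM in the placodes and 5.51 and 5.59 FPKM in the SMGs. The anterior Hox genes, which mark tissue behind the first arch, were higher in the placodes. Of 6 such genes, 5 were tested and all 5 were called higher, with log2 fold changes from 3.99 for Hoxa2 to 6.40 for Hoxb3. Of these 5, 3 had an SMG mean below 1, the class in which 96.5% were called higher. Hoxb2, the highest of them in both groups, was at 126 and 119 FPKM in the placodes and 1.76 and 1.62 FPKM in the SMGs. Hoxa2, which specifies the second arch, was at 35.9 and 40.1 FPKM in the placodes and 1.41 and 1.49 FPKM in the SMGs.

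**Figure D3:**
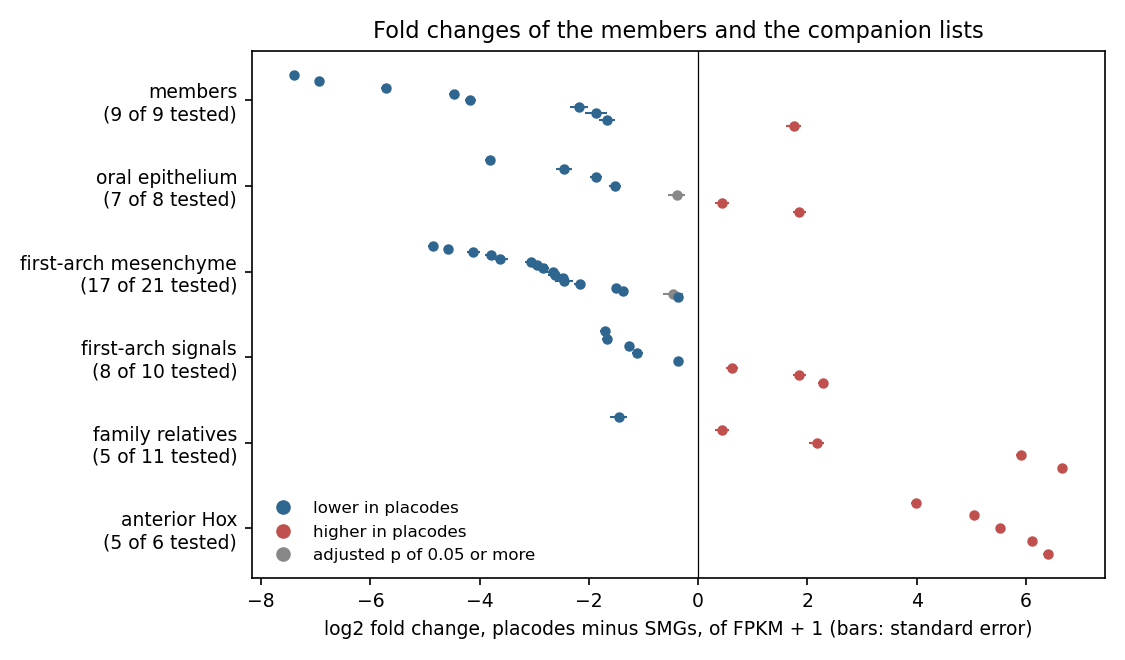
The plot of fold changes by list shows the log2 fold change of FPKM + 1, placodes minus SMGs, on the horizontal axis for each tested gene, with bars of 1 standard error and colors for the call. The members reach from -7.40 to 1.75, the tested first-arch mesenchyme genes all lie below 0, and the tested anterior Hox genes all lie above 3.

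Many markers of whole tissues also differed between the groups, in both directions. Of 7 epithelial markers, 5 were called lower in the placodes, while Krt8 and Krt18 were not called, and the 7 summed to 58.1 and 64.0 FPKM in the placodes and 367 and 330 FPKM in the SMGs. All 6 mesenchyme markers were lower, with sums of 180.1 and 173 FPKM in the placodes and 1740 and 1679 FPKM in the SMGs, of which Col3a1, a fibrillar collagen, made up the most. All 6 neural markers were higher, with sums of 794 and 826 FPKM in the placodes and 68.1 and 60.3 FPKM in the SMGs, of which Tubb3, a neuronal tubulin, made up the most. Of the keratins in the epithelial list, Krt5, Krt14 and Krt15 were listed at 0 in both placode samples, in which Epcam was at 1.75 and 2.69 FPKM. Krt8 was at 34.4 and 35.6 FPKM in the placodes, and Krt18 at 20.8 and 24.5 FPKM. The log2 fold changes of Krt8 and Krt18 were 0.13 and 0.34. All 3 tested blood markers and all 4 endothelial markers were lower in the placodes, with Hbb-y, an embryonic globin, listed at 0 in the placodes and at 1336 and 1266 FPKM in the SMGs. Of the endothelial markers, Cdh5 was the highest, at 8.07 and 7.60 FPKM in the placodes and 30.3 and 35.4 FPKM in the SMGs. Over all tested features, 40.4% were called lower and 35.7% higher in the placodes. Of the lower markers, 3 epithelial, 3 blood and 3 endothelial ones had a placode mean below 1, where 94.1% were called lower. Among the neural markers, 2 had an SMG mean below 1, where 96.5% were called higher. The part of these markers' differences in the members' values was not tested. The sources give no batch, so batch and group cannot be told apart.

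Ratios within each sample set a member beside a marker of epithelium or mesenchyme, and the pairs were chosen after the values had been seen. The bulk values do not show whether a member and its marker come from the same cells. Pitx1 was at 0.307 and 0.159 times the FPKM of Epcam, an epithelial adhesion protein, in the placodes and at 2.81 and 3.22 times in the SMGs. Relative to Krt8, a keratin of simple epithelia, the ratios were 0.0157 and 0.0120 in the placodes and 6.79 and 8.97 in the SMGs. Barx2 relative to Epcam was at 0.121 and 0.112 in the placodes and 0.793 and 0.775 in the SMGs. Barx1 relative to Pdgfra, a receptor of mesenchyme cells, was at 0.119 and 0.134 in the placodes and 2.20 and 2.35 in the SMGs. Alx4 relative to Pdgfra was at 0.101 and 0.143 in the placodes and 0.394 and 0.399 in the SMGs. The placode samples lay below the SMG samples in each of these ratios. Each member in the ratios had a placode mean below 1 FPKM and entered the test only through the SMGs. This favored lower ratios in the placodes, so their direction is no separate support. The ratios were not tested.

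**Figure D4:**
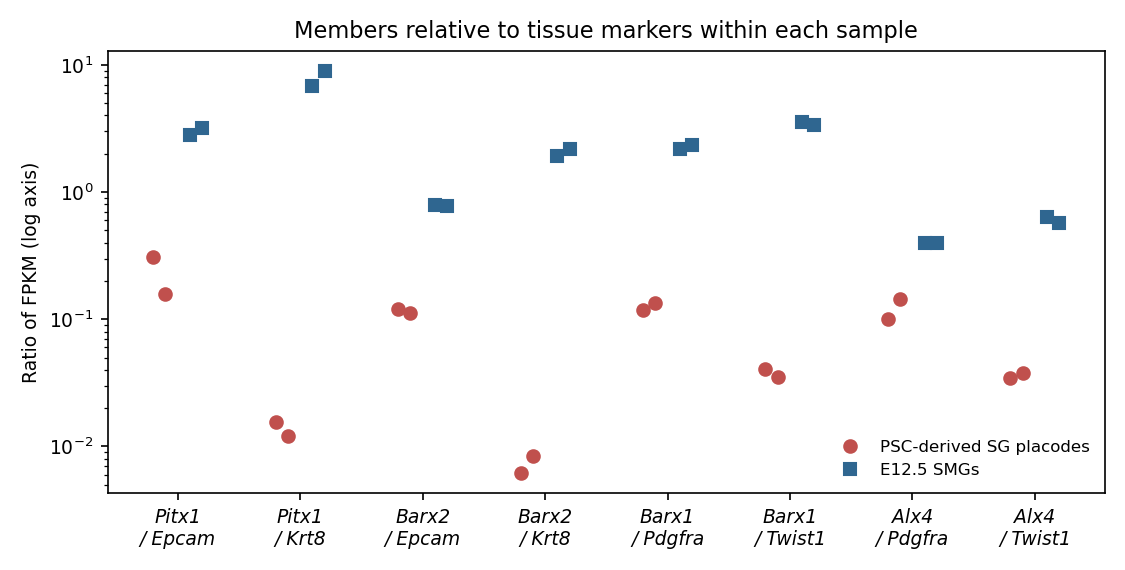
The plot of ratios within samples shows, on a log axis, the FPKM of Pitx1 and Barx2 divided by that of Epcam or Krt8, and of Barx1 and Alx4 divided by that of Pdgfra or Twist1, with circles for placode samples and squares for SMG samples. The placode samples lie below the SMG samples for all 8 ratios, least far for Alx4 to Pdgfra.

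Some members are also known from other tissues, whose markers were checked. Of the lens genes, Foxe3 was listed at 0 in all samples. Cryab, a small heat shock protein that other tissues also express, was at 4.58 and 3.54 FPKM in the SMGs. In the placodes Cryab was listed at 0. Bfsp1 was at 0.232 and 0.281 FPKM in the placodes and 2.13 and 2.16 FPKM in the SMGs. Cryab and Bfsp1 were called lower, and both had a placode mean below 1, where 94.1% were called lower. Nkx2-1, which works with Lhx6 and Lhx8 in the ventral forebrain, was below 0.05 FPKM in all 4 samples. Th, the rate-limiting enzyme of dopamine synthesis, was at 3.49 and 2.78 FPKM in the placodes and 1.27 and 0.975 FPKM in the SMGs, and the dopamine transporter gene Slc6a3 was listed at 0 in the placodes and below 0.05 FPKM in the SMGs. The dopaminergic genes went both ways, with Th called higher and Nr4a2 called lower in the placodes. Nr4a2, a nuclear receptor of dopaminergic neurons, was at 1.70 and 1.51 FPKM in the placodes and 3.11 and 3.55 FPKM in the SMGs (adjusted p = 1.26e-03). En1, a midbrain and hindbrain homeobox gene, was at 1.74 and 1.48 FPKM in the placodes, below 0.05 FPKM in the SMGs, and not tested. Skeletal muscle genes were present in the SMGs, with Myog, a muscle differentiation factor, at 28.3 and 21.2 FPKM, and Myog was listed at 0 in the placodes. Pax7, a factor of muscle precursors that the dorsal neural tube also expresses, was called higher in the placodes, at 12.7 and 11.5 FPKM against 1.27 and 0.763 FPKM (log2 fold change 2.71, adjusted p = 1.02e-05). All 5 muscle genes were higher in SMG sample 1 than in sample 2, with sums of 46.5 and 31.2 FPKM. This direction was not particular to muscle, but the differences were larger there. On the log2(FPKM + 1) scale, they reached from 0.364 for Pax7 to 1.23 for Msc. The largest differences in this direction were 0.357 for the epithelial, 0.227 for the neural and 0.101 for the mesenchyme markers. SMG sample 1 was also higher for all 7 epithelial, all 6 neural and 5 of 6 mesenchyme markers. It was higher for 2 of 4 blood and 1 of 4 endothelial markers. The FPKM of all features summed to 384773 in SMG sample 1 and 373962 in sample 2.

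The SMG samples also differed from each other in the low members. On the log2(FPKM + 1) scale, SMG sample 1 exceeded sample 2 by 0.59 for Lhx8, 0.36 for Pitx3, 0.33 for Alx1 and 0.31 for Lhx6, where the median absolute difference over all tested features was 0.09. For Pitx1, Barx1 and Alx4 the differences were -0.05, -0.07 and 0.02. The part of muscle RNA, or of RNA of any other tissue, in these differences was not tested.

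By Euclidean distance of log2(FPKM + 1) over the 4 samples, the gene nearest to both Pitx1 and Barx1 was Grb10, an imprinted growth factor receptor adaptor. Grb10 was at 0.698 and 0.698 FPKM in the placodes and 300.01 and 316 FPKM in the SMGs, at distances of 0.52 and 0.67. Vgll2 was the nearest to Lhx8, at a distance of 0.06, with 0.135 and 0.101 FPKM in the placodes and 4.08 and 2.48 FPKM in the SMGs. Actc1, the cardiac actin that is also made in embryonic skeletal muscle, was the nearest to Barx2, at a distance of 0.31. The nearest gene to Alx1 was Lin7b, at 0.12. With 4 samples in 2 groups, such likeness reflects little more than the level in each group.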

How the data were processed

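Total RNA of 2 samples of PSC-derived SG placodes and 2 of E12.5 SMGs was sequenced as paired-end reads. The authors mapped the reads with HISAT2 (version not given in the sources used here) and deposited 1 FPKM value per gene and sample. The submitters' processing notes list the builds GRCm38 and GRCh38, and the program behind FPKM and its handling of strand are not stated. The values show no whole-read steps, so depth is unknown and no counting interval or floor is given. Samples were grouped by their titles.

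Values were taken to log2(FPKM + 1), and those features whose mean FPKM reached 1 were fitted with limma 3.58.1 in R 4.3.3 (lmFit, eBayes with trend, group as the only term), with two-sided p-values and Benjamini-Hochberg adjustment over all 13193. The procedure was tested on simulated data. Positions are from GENCODE M21 and promoters from RefSeq, both on GRCm38. In all, 15 alternatives each changed 1 choice. Deviations from the group means had r = -0.03 between samples with the same replicate number. With 2 samples per group this cannot decide whether such samples were handled together, and the main fit used no pairing.

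Members and lists were chosen with earlier results of these data known. All members are named. The rule for the lists took the genes with the highest means and the extreme called fold changes, besides some fixed genes such as Hand2, and not all of them are printed for the markers of other tissues. Some genes of the lists are not reported here and were left out of their counts. The other genes named from the lists, such as Foxe1, Lmx1b, Msx2 and En1, were picked with their values in view.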

Additional observations from a re-analysis of the deposited data

How the results depend on the processing

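The 8 members called lower and the 1 called higher kept their calls and directions in every alternative in which they were tested. With a mean FPKM of at least 5 only 5 members could be tested, so the counts were 5 lower and 0 higher. Under the same minimum, 1 oral epithelium gene, Trp63, and 0 family relatives were called lower. Foxe1, Grhl3, Tfap2a and Isl2 fell below this minimum and were not tested. Of the 9679 features tested there, 7460 were called, 51.8% of these lower. Leaving out each replicate in turn gave 4 to 5 oral epithelium genes called lower. With a sample left out, its group is assumed to vary like the other. The highest adjusted p of a member over the alternatives was 0.0190, for Lhx8 without placode sample 2. Fold changes of low genes depended most on the pseudocount. At 0.01 in place of 1, the log2 fold change of Gsc was -9.49 and that of Lhx8 -4.49. The median over the members was -5.45 at a pseudocount of 0.1 and -5.60 at 0.01. It was -5.02 after rescaling to an equal and larger sum (TPM), which also raised every value against the pseudocount of 1. The other scalings gave -4.14 (median-ratio), -4.15 (quantile) and -4.17 (rescaled without hemoglobin and mitochondrial genes). With the replicate block, 10043 features were called, against 10049 without it, and 17 first-arch mesenchyme genes, Foxf1 being the one added. With 2 replicates per group and no read counts, the smallest detectable FPKM is unknown.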
